A study of Mus musculus with 19 samples.

Results

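The genes described here encode the proteins of the cytoplasmic ribosome. They were taken by symbol: Rps or Rpl and a number, with or without a closing a or x, plus Rpsa and the stalk genes Rplp0, Rplp1 and Rplp2. Predicted genes, Rpl22, Rps27 and symbols ending in l were left out, and the lung spot had to be well above background on at least 4 arrays. All 74 such genes on the array passed that filter, out of 19315 genes tested, and 29 of them belong to the small and 45 to the large subunit. The lung spot passed that mark on all 19 arrays for 73 of them, and on 14 arrays for Rpl21.

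The ribosome is built from a small subunit, which reads the mRNA, and a large subunit, which joins the amino acids. Its proteins are made in matched amounts, and their genes are among the most strongly transcribed in most cells. In mammals their mRNAs begin with a pyrimidine tract, the terminal oligopyrimidine (TOP) motif, through which the kinase mTORC1 controls their translation. Rpl5 and Rpl11, bound to 5S rRNA, can hold Mdm2 when ribosome assembly is disturbed, which ties them to p53.

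The series measured part of the lung of male mice of the transgenic strain 40.6, named MutaMouse in the title, aged 25 weeks. All were gavaged daily for 28 days and sampled 3 days after the last dose. The groups were 5 vehicle mice, 5 mice given benzo(a)pyrene (BaP, a combustion product) at 25 mg/kg/day (the low dose below), 4 given 50 mg/kg/day (the middle dose) and 5 given 75 mg/kg/day (the high dose). The design text names 5 mice per group, and the arrays of 4 at the middle dose were used here. One 2-colour array was run per mouse, with lung RNA in Cy5 and a commercial RNA pool of mouse cell lines in Cy3, and no dyes were swapped. The ratio is log2 of lung over reference after a loess fit within each array, and a difference is dose minus vehicle on that log2 scale. A gene rose or fell where limma's p, adjusted by Benjamini-Hochberg over all 19315 genes, was under 0.05.

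Markers of alveolar type 2 cells (10 of 10 tested) and of lung endothelium (12 of 12) were detected in lung RNA above background on all arrays. The arrays lay on 6 slides, and position on the slide ran with dose: position 1 held 4 of the 5 vehicle mice, position 2 all low dose mice, position 3 held 3 of the 4 middle dose mice and position 4 all high dose mice. Vehicle mouse 5 lay at position 2 and middle dose mouse 13 at position 4. Position and dose therefore cannot be told apart. Spots of 10 control RNA probes differed from vehicle by a median of -0.01 at the low, 0.01 at the middle and -0.24 at the high dose. At the high dose the probes ran from -0.36 to -0.03. Over mice their ratio averaged -0.16 ± 0.42 at the high dose and 0.06 ± 0.13 in vehicle mice (SD, n = 5 each). The part of the control spots in the results was not tested. The number of arrays limits the precision, and in whole lung fewer cells of a type and less RNA per cell cannot be told apart.

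The letters at the start of these genes are shown first, since a shared start sequence is what the group is known for. RefSeq promoters (GRCm38.p6, 250 bases before to 50 after the annotated start) were matched for 54 of the 74 genes. In each window the start follows the first 25 bases, and capitals mark the longest unbroken run of C and T that touches the 15 bases on either side of the start. The first 4 genes fell at the high dose and the other two did not pass the test.
Rpl38, chr11:114668555-114668599, plus strand: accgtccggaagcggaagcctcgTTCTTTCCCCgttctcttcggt
Rps26, chr10:128626487-128626531, minus strand: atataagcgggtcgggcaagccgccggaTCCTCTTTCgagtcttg
Rpl13, chr8:123102325-123102369, plus strand: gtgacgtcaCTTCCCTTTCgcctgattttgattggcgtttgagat
Rps21, chr2:180257354-180257398, plus strand: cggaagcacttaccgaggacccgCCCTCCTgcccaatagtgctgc
Rps6, chr4:86857348-86857392, minus strand: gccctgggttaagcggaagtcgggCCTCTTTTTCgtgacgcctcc
Rpl4, chr9:64173362-64173406, plus strand: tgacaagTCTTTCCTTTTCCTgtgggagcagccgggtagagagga
The run was 10 bases long in Rpl38, Rpl13 and Rps6, 9 in Rps26, 7 in Rps21 and 14 in Rpl4. A run of at least 8 bases was present in 26 of the 54 promoters (48.1%), against 17.8% of the promoters of 27025 genes. The stricter TOP form, with C as the first base of the start followed by at least 4 C or T, was present in 11 (20.4%), against 2.49% of all. In Rpl13 and Rpl4 the run shown ends before the annotated start, and in Rps26 it begins after it. Among the 34 promoters of members that fell at the high dose, 14 held a run of at least 8 bases (41.2%). Among the 20 promoters of the other members, 12 did (60%). The letters CCGGAAG, the core bound by ETS family factors, were found on either strand in 22 of the 54 (40.7%) and in 9.12% of all promoters. AAGATGGC, bound by YY1, was found in 3 (5.56%), against 2.88% of all, and TATAAA in 5 (9.26%), against 14.2% of all. These matches describe letters in the window only.

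In BaP lungs the ratio of the ribosomal protein genes was lower than in vehicle lungs after loess, and lower at each higher dose. With plain median centring of each array, however, the median difference was above 0 at all 3 doses (0.20, 0.04 and 0.47) and 0 members passed in limma. The median of all genes was above 0 there as well (0.15, 0.14 and 0.35). After loess, 44 of the 74 members fell and 0 rose at the high dose, where 1.51% of all genes fell. At the middle dose, 20 fell and 0 rose, where 0.337% of all genes fell. At the low dose 0 members passed in limma in either direction, where 0.0104% of all genes fell, and 18 members were lower at an unadjusted p under 0.05, as were 2.94% of all genes. The median loess difference of the 74 members was -0.15 at the low, -0.33 at the middle and -0.47 at the high dose. The median of all genes after loess lay within 0.01 of 0 at each dose.

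The median ratio over the 74 members was -0.52, -0.33, -0.70, -0.59 and -0.43 in vehicle mice 1 to 5, and -0.60, -0.65, -0.50, -0.73 and -0.65 in low dose mice 6 to 10. It was -0.75, -0.94, -0.72 and -0.83 in middle dose mice 12 to 15, and -0.94, -0.93, -1.16, -0.85 and -0.83 in high dose mice 16 to 20. Every middle and high dose mouse lay below every vehicle mouse, whereas low dose and vehicle values overlapped. Set against the vehicle mouse of its own slide, the member median differed by -0.52, -0.23, -0.56 and -0.31 on the 4 slides with a high dose mouse. It differed by -0.39, -0.23 and -0.51 on the 3 slides with a middle dose mouse, and by -0.33, 0.05, -0.14 and -0.09 on the 4 slides with a low dose mouse. Both upper doses were thus below vehicle on every slide that held both. The mean over the control spots was also lower in the high dose mouse on its 4 slides, with differences of -0.41, -0.29, -0.55 and -0.20. In the middle dose mouse this mean differed by -0.57, -0.18 and -0.03 on its 3 slides. In the low dose mouse it differed by -0.47, -0.06, 0.19 and -0.30 on its 4 slides. Under median centring the member differences were above 0 on 4 of 4 slides at the high dose (0.08 to 1.22), on 2 of 3 at the middle and on 3 of 4 at the low dose. The all-gene median then differed by 0.62, 0.26, 0.14 and 0.37 at the high and 0.60, 0.06 and 0.06 at the middle dose. At the low dose it differed by 0.55, 0.21, -0.01 and 0.06.

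**Figure D1:**
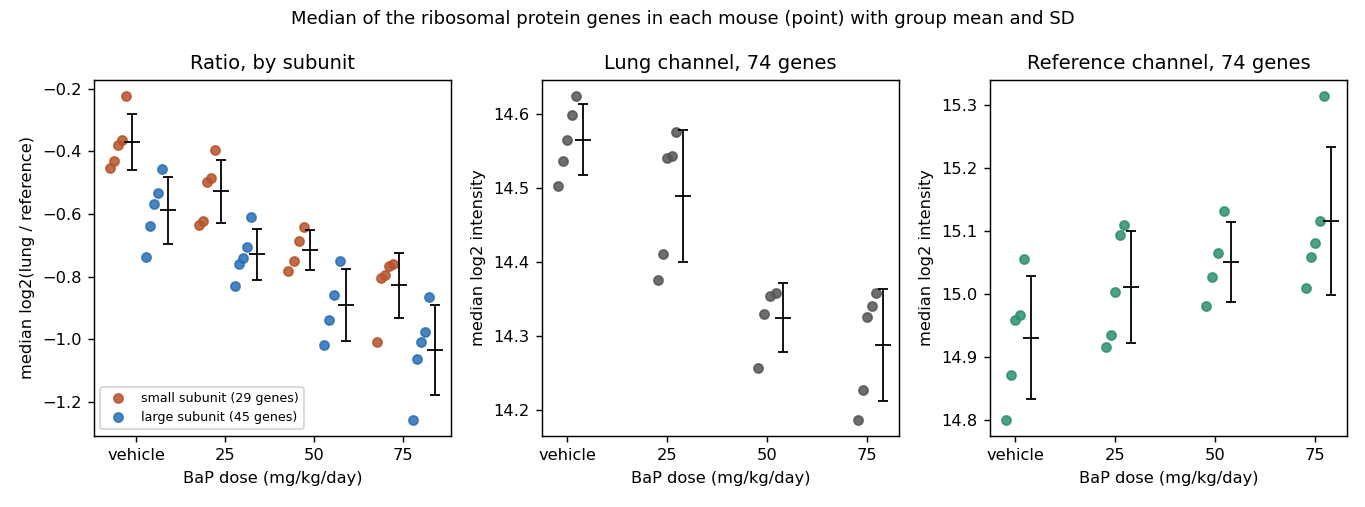
Each point is the median over the ribosomal protein genes in 1 mouse, by BaP dose: the log2 ratio of lung over reference for the 29 small and 45 large subunit genes, and the log2 intensity of the lung and the reference channel after loess. Bars are the group mean and SD. The ratio of both subunits and the lung channel are lowest at the high dose and the reference channel is highest there. With median centring the ratio is not lower at the high dose than in vehicle mice, and the all-gene median is above its vehicle value.

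Both subunits were lower together, under loess. At the high dose 18 of 29 small subunit genes (62.1%) and 26 of 45 large subunit genes (57.8%) fell, and at the middle dose 10 of 29 (34.5%) and 10 of 45 (22.2%). The median difference of the small subunit was -0.17, -0.41 and -0.48 at the low, middle and high dose, and that of the large subunit -0.14, -0.31 and -0.43. Per mouse, the small subunit median minus the large subunit median was 0.22 ± 0.099 in vehicle mice (SD, n = 5), 0.20 ± 0.04 at the low (n = 5), 0.18 ± 0.12 at the middle (n = 4) and 0.21 ± 0.093 at the high dose (n = 5). The group means of this gap differed by less than the spread between mice.

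The upper doses share the vehicle mice, and 19 members fell at both, 1 at the middle dose only (Rps13) and 25 at the high dose only. The group means were lower at every step of dose in 53 of the 74, a count for which no share of all genes is given. Members varied together on the same arrays, so these are not separate observations. All high dose mice lay below all vehicle mice for 35 members, where the same held for 1.66% of all genes. It held for 28 members at the middle dose (1.96% of all genes) and for 4 at the low dose (0.461% of all genes), which were Rpl12, Rpl13, Rpl31 and Rps12. A linear trend over all 19 mice fell in 52 members and rose in 0, where 1.83% of all genes fell, with a median slope of -0.16 per 25 mg/kg/day. Over the dosed mice alone, 8 members had a falling trend (0.166% of all genes): Rpl8, Rpl12, Rpl13, Rpl35a, Rpl37a, Rps4x, Rps20 and Rps24.

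Of the small subunit genes, Rps21, part of the body of that subunit, had the largest fall at the high dose. Its ratio was -0.94, -1.01, -0.99, -0.90 and -0.55 in high dose mice, against 0.34, 0.09, -0.27, -0.18 and -0.36 in vehicle mice. Every high dose mouse lay below every vehicle mouse, with mouse 20 the highest of them. The difference was -0.80 ± 0.15 (SE), a fold of 0.573 (95% interval 0.460 to 0.713), and limma's adjusted p was 0.0038. Rps23, which sits at the decoding centre, fell by 0.67 at the high dose and by 0.59 at the middle dose. Rps4x, the X-linked form of S4, fell by 0.66 and by 0.47. Rps3, which lines the mRNA entry channel, fell by 0.62 and by 0.48. Rps12 fell by 0.59 and by 0.47.

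Rps26, which touches the mRNA ahead of the start codon, fell by 0.47 at the high and by 0.56 at the middle dose. Rps29, a zinc-binding protein of the head, fell by 0.50 and by 0.52. Rps13 had the largest difference of any member at the middle dose, -0.66 ± 0.15 (limma adjusted p = 0.042), and -0.51 at the high dose (adjusted p = 0.055). Its ratio was -1.33, -0.75, -0.64 and -0.69 in middle dose mice, against -0.70, -0.12, 0.05, -0.06 and -0.12 in vehicle mice. The groups overlapped only through vehicle mouse 1, and middle dose mouse 12 was the lowest. Mice 1 and 12 lay on the same slide. The call of Rps13 at the middle dose was kept in 12 of 30 other settings and that of Rps3 in 15 of 30. Rps27a, made as a fusion with ubiquitin, fell by 0.36 at the high dose (adjusted p = 0.0098), and Rps2 by 0.43 (adjusted p = 0.013).

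Several small subunit genes did not pass. Rps6, the substrate of S6 kinase, differed by -0.26 ± 0.17 at the high dose (limma adjusted p = 0.45). Its ratio was -1.22, -1.05, -1.43, -1.24 and -1.88 in high dose mice, against -1.70, -0.97, -1.07, -1.04 and -0.74 in vehicle mice. The groups overlapped, with mouse 20 lowest at the high dose and mouse 1 lowest among vehicle mice. Mice 1 and 20 lay on the same slide. Rpsa, also known as a laminin receptor, differed by -0.13 ± 0.21 and had the largest SD of any member over vehicle mice. Rps14, lost in the human 5q- syndrome, differed by 0.16, -0.01 and -0.31 at the low, middle and high dose. Rps18 differed by -0.50 ± 0.17 at the high dose (adjusted p = 0.13).

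Rps19, mutated in human Diamond-Blackfan anaemia, was the one member above vehicle at the high dose, with a difference of 0.23 ± 0.15 (limma adjusted p = 0.48). Its ratio was -1.10, -1.20, -1.01, -0.98 and -1.12 in high dose mice, against -1.18, -1.13, -1.44, -1.22 and -1.57 in vehicle mice. The groups overlapped. With the scanner software's processed signals in place of the loess ratio it passed as higher at the high dose. At the low dose, where 0 members passed in limma, the most negative differences were those of Rps21 (-0.31), Rps2 (-0.30) and Rps13 (-0.30), and the most positive those of Rpl4 (0.17), Rps14 and Rps19 (0.11).

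**Figure D2:**
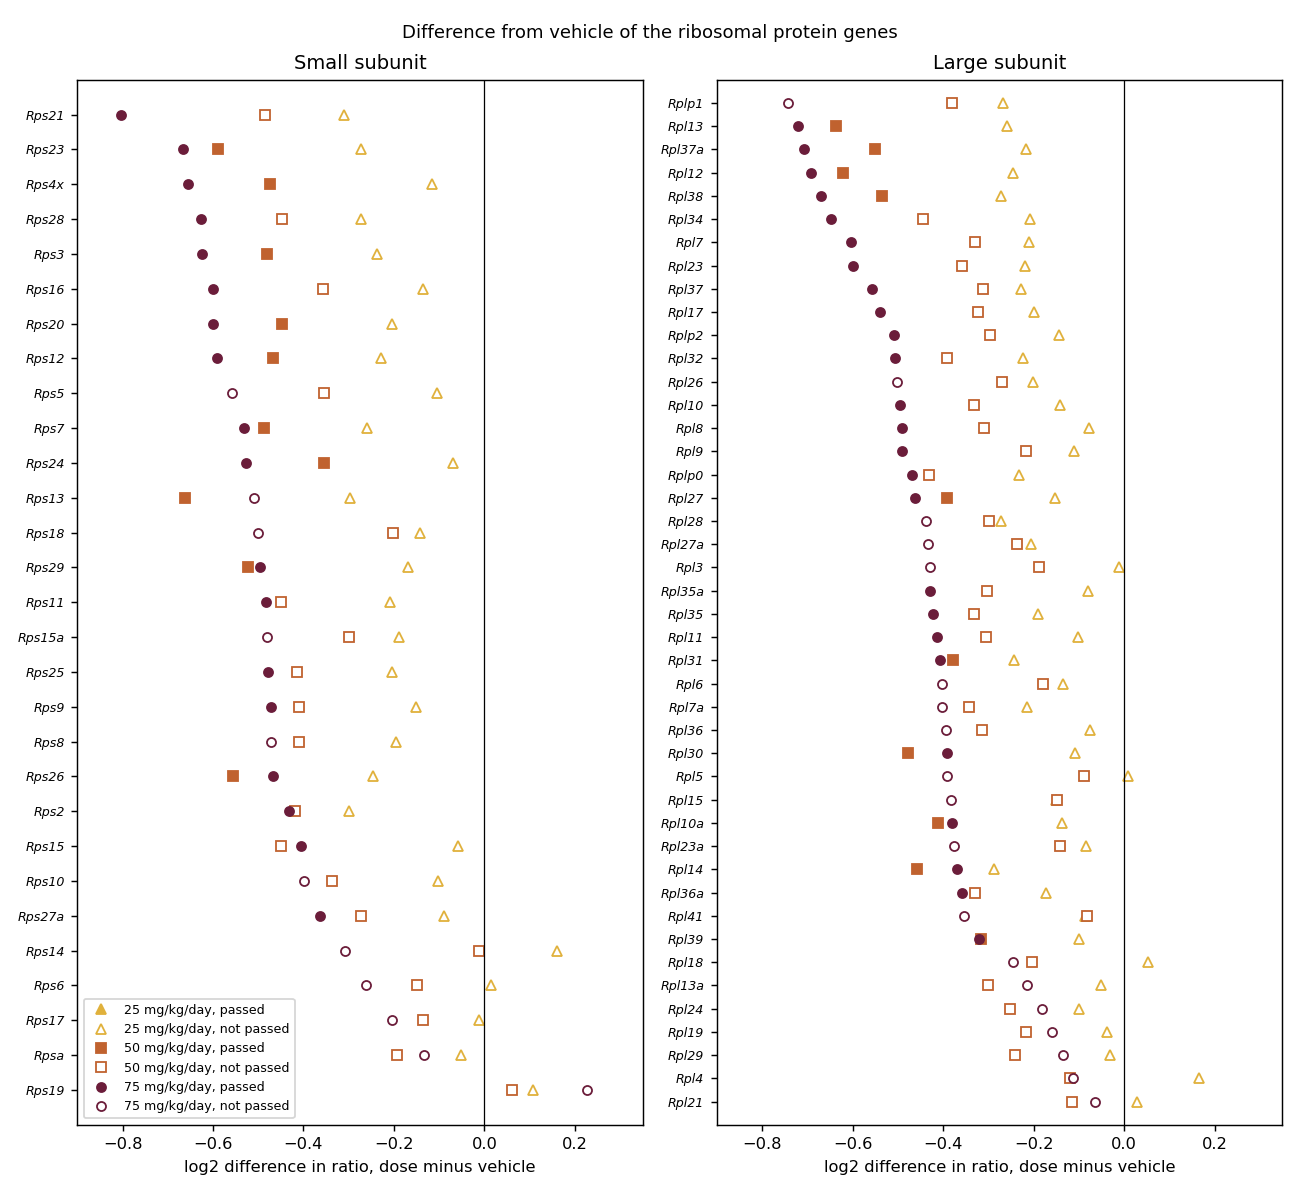
The log2 difference in the ratio, dose minus vehicle, of the ribosomal protein genes reported here at the 3 BaP doses, by subunit, with the genes that passed the test marked. At the high dose Rps19 lies above 0 and the other genes lie below it. With median centring of each array all of them lie above 0, where the median of all genes tested is 0.35.

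In the large subunit, Rpl13 separated each dose from vehicle, though its middle and high dose values overlapped and it did not pass at the low dose. Its ratio was -0.56, -0.45, -0.77, -0.83 and -0.72 in vehicle mice, -0.95, -0.99, -0.86, -0.94 and -0.90 at the low, -1.34, -1.30, -1.28 and -1.29 at the middle and -1.50, -1.30, -1.64, -1.41 and -1.09 at the high dose. No dosed mouse reached the vehicle range. It fell by 0.72 ± 0.09 at the high dose, a fold of 0.606 (95% interval 0.532 to 0.691), and by 0.64 at the middle dose. A second probe of Rpl13 differed by -0.76 at the high and -0.49 at the middle dose.

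The stalk, which recruits elongation factors, is made of Rplp0, Rplp1 and Rplp2, and Rpl12 lies at its base. Rpl12 fell by 0.69 ± 0.08 at the high and by 0.62 at the middle dose. Its ratio was -1.20, -1.09, -1.43, -1.29 and -1.26 in high dose mice, against -0.58, -0.46, -0.74, -0.64 and -0.39 in vehicle mice, with no overlap. Rplp0 fell by 0.47 at the high dose (limma adjusted p = 0.01) and Rplp2 by 0.51 (adjusted p = 0.013). Rplp1, whose lung spots were the brightest of the members, differed by -0.74 ± 0.21 (adjusted p = 0.051). Its ratio was -0.28, -0.40, -0.55, -0.18 and 0.23 in high dose mice, against 1.14, 0.74, 0.31, 0.23 and 0.12 in vehicle mice, and mouse 20 lay within the vehicle range. Vehicle mouse 1, on the same slide as mouse 20, was at 1.14.

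Rpl37a, a small zinc-binding protein, fell by 0.71 ± 0.09 at the high and by 0.55 at the middle dose. Rpl38, which helps to translate Hox mRNAs in mouse embryos, fell by 0.67 and by 0.53. Rpl11 fell by 0.41 ± 0.10 (adjusted p = 0.029), while Rpl5, its partner in the 5S particle, differed by -0.39 ± 0.19 (adjusted p = 0.3), with overlap. Rpl13a, which also takes part in silencing inflammatory mRNAs, differed by -0.21 ± 0.13. Rpl41, Rpl24, Rpl4, Rpl29 and Rpl21 differed by -0.35, -0.18, -0.11, -0.14 and -0.06 and did not pass. Rpl24 had the smallest SD over vehicle mice, and Rpl21 the dimmest lung spots of the members. Across the 74 genes of these same arrays, Pearson's r of the high dose difference with mean lung brightness was -0.66, so brighter members had the more negative differences.

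**Figure D3:**
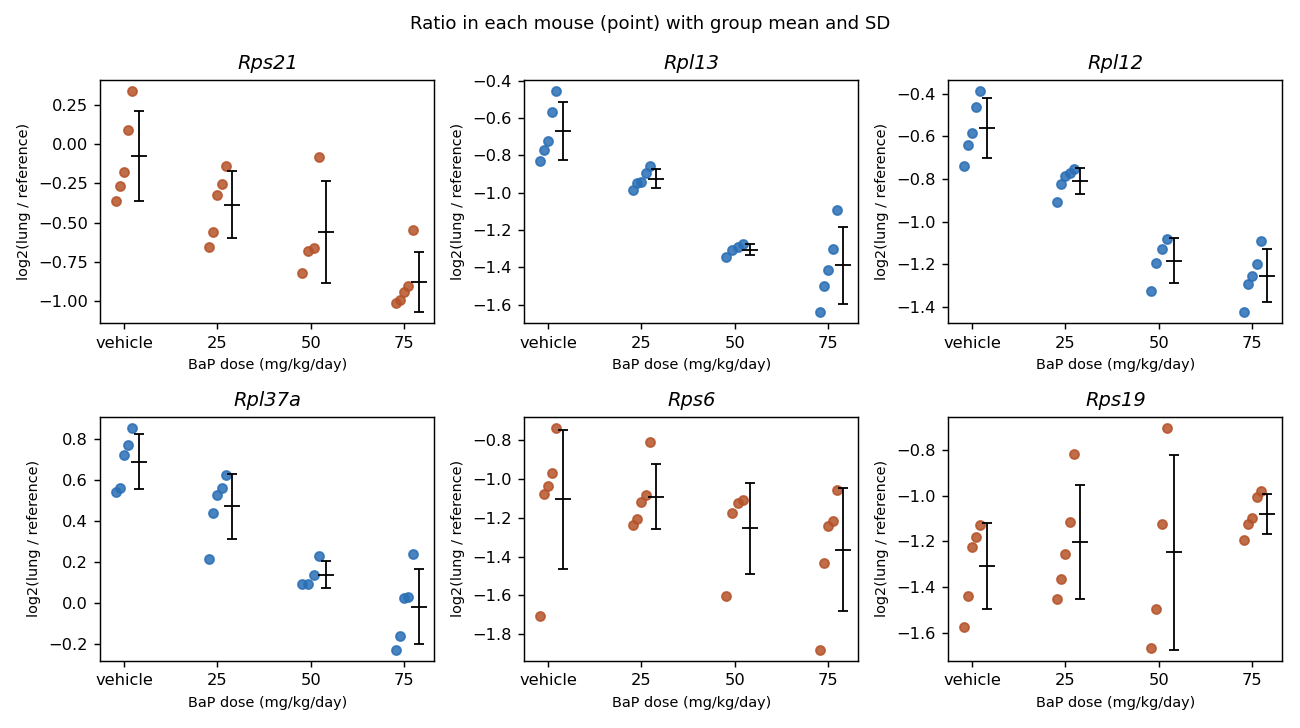
The log2 ratio of lung over reference in each mouse by BaP dose for the members named in the panel titles, with bars for the group mean and SD. High dose values of Rps21, Rpl13, Rpl12 and Rpl37a lie below all vehicle values, while those of Rps6 and Rps19 overlap with them. With median centring the high dose mean of each of these genes lies above its vehicle mean. The median difference of all genes is then 0.35.

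Of the 30 further probes of members past the filter, 29 were below 0 at the high dose, with a median of -0.33, and 8 fell, where 1.27% of all probes fell. Rpl29 was the only member whose probes differed in sign there, with -0.14 for the probe used and -0.29, -0.10 and 0.01 for the others. Second probes of Rps2 and Rps3 differed by -0.31 and -0.38 at the high dose and did not pass. Those of Rps21 and Rplp0 differed by -0.61 and -0.42 and passed, as did that of Rpl13.

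Between doses, fewer members differed. Between the high and the low dose 9 members were lower at the high dose (0.166% of all genes), led by Rps4x at -0.54 ± 0.08 (limma adjusted p = 0.0015), Rpl37a at -0.49 and Rpl13 at -0.46. The median over the members was -0.30. Without high dose mouse 16 or 18 or low dose mouse 8 that count was 3, without low dose mouse 10 it was 4, and without low dose mouse 6 or 9 it was 5. Between the middle and the low dose 0 passed in limma, with a median of -0.19 and 24 members lower at an unadjusted p under 0.05, as were 2.2% of all genes. Between the high and the middle dose 0 passed in limma, with a median of -0.11 and 4 members lower at an unadjusted p under 0.05, as were 2.13% of all genes.

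The ratio was then split into its channels. The same reference RNA was used on every array. After loess, however, each channel is computed from the fitted ratio and mean intensity of both dyes. The reference values here therefore also depend on the lung signal of the array. In the lung channel, 16 members fell at the high dose (0.771% of all genes), 2 at the middle dose (0.0725% of all genes) and 0 at the low dose in limma, where 6 were lower at an unadjusted p under 0.05, as were 2.6% of all genes. The median lung difference was -0.10, -0.23 and -0.30 from low to high dose. In the reference channel the median was 0.06, 0.12 and 0.15, and at the high dose 7 members passed as higher, where 0.0828% of all genes did: Rpl38, Rplp0, Rplp2, Rps3, Rps4x, Rps12 and Rps20. Without high dose mouse 18, 0 members passed in the reference channel and 4 in the lung channel.

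The share of each channel differed between genes at the high dose. Rps21 differed by -0.69 in the lung channel and 0.11 in the reference channel. Rps26 differed by -0.49 and -0.02, and Rpl37 by -0.51 and 0.05. Rplp0 differed by -0.03 in the lung channel and 0.44 in the reference channel, so its lower ratio lay almost wholly in the reference channel as computed after loess. Rps12 differed by -0.23 and 0.36. At the middle dose Rpl13 and Rpl37a fell in the lung channel, by 0.48 and 0.42.

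The median lung intensity of the members was 14.29 ± 0.076 in high dose mice and 14.56 ± 0.048 in vehicle mice (log2, SD, n = 5 each), and the ranges did not overlap. The median reference intensity was 15.12 ± 0.12 on high dose arrays and 14.93 ± 0.098 on vehicle arrays, with overlap, and the array of mouse 18 was highest. With each channel normalized on its own and no loess, the reference medians were -0.01, 0.01 and -0.01 from low to high dose. The lung medians were then -0.07, -0.21 and -0.21, with 0, 1 and 3 members passing.

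**Figure D4:**
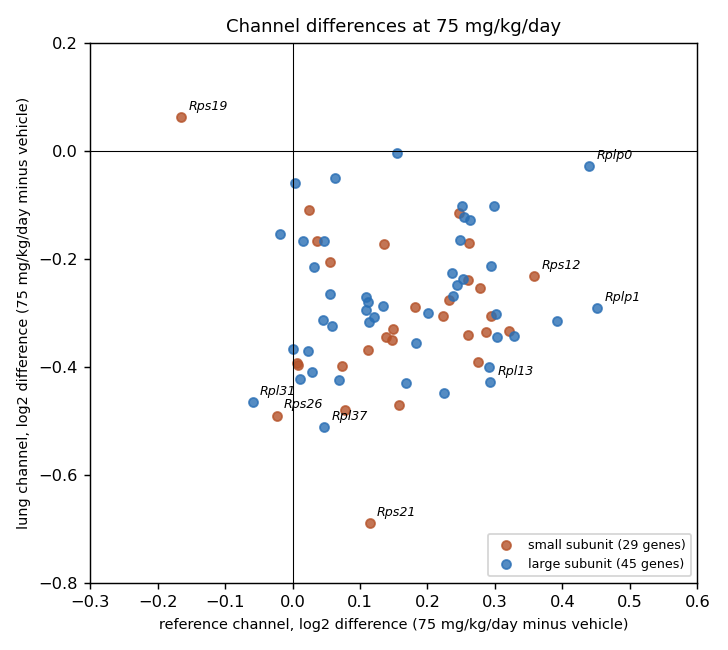
The log2 difference of each ribosomal protein gene at the high dose from vehicle in the lung channel (vertical axis) against that in the reference channel (horizontal axis), after loess, by subunit. Most genes lie below 0 in the lung channel and above 0 in the reference channel, with Rplp0 near 0 and Rps21 lowest in the lung channel; with each channel normalized on its own the median reference difference is -0.01.

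The direction of the group differed between scalings, and the cause was not tested. Processed signals gave medians of -0.11, -0.22 and -0.27 from low to high dose, with 0, 12 and 35 members lower. The authors' deposited table gave -0.07, -0.20 and -0.17, with 0, 4 and 8 members lower. The share of all genes lower with processed signals or in the deposited table is not given here. Plain median centring gave 0.20, 0.04 and 0.47 for the members and 0.15, 0.14 and 0.35 for all genes. Relative to all genes, the members were thus higher at the low and high dose and lower at the middle dose. Of the members, 69 lay in the brightest decile of the genes tested, and the 1863 other genes of that decile had median-centred medians of 0.31, 0.29 and 0.69, which the members lay below by 0.11, 0.25 and 0.22. After loess, 5.48% of those bright genes fell at the high dose.

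**Figure D5:**
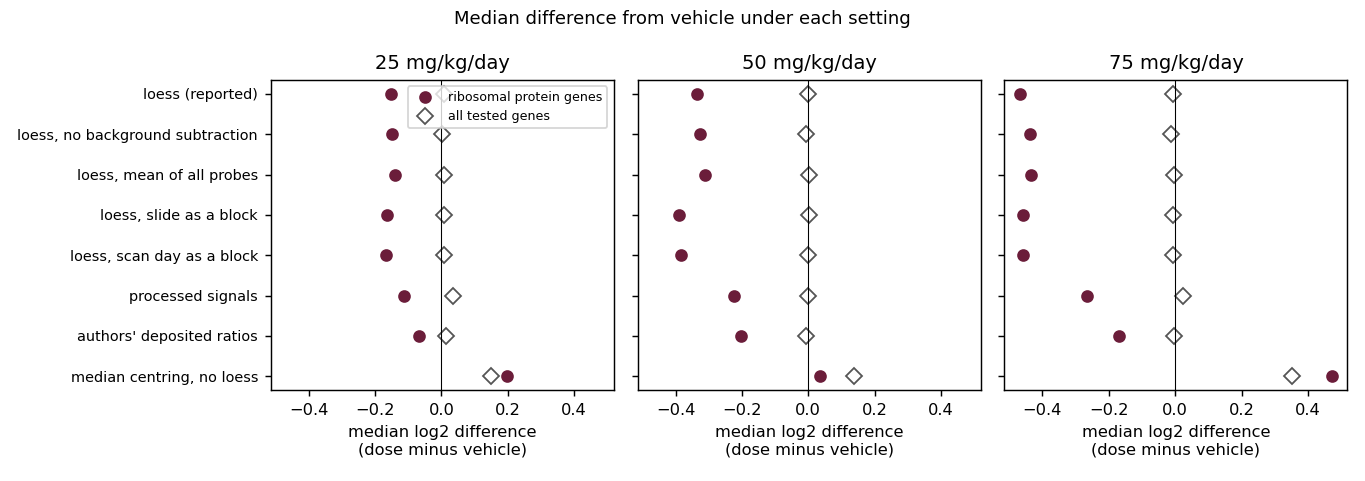
The median log2 difference from vehicle of the 74 ribosomal protein genes and of all genes tested at each dose under the settings tried. The members lie below all genes with loess, with processed signals and in the authors' deposited ratios. Under median centring both lie above 0 at all 3 doses, with the members below all genes at the middle dose.

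With slide as a block in the fit, 62 members fell at the high dose (4.04% of all genes) and 41 at the middle dose (0.968% of all genes), 24 of the small and 38 of the large subunit at the high dose. All 44 and all 20 members that fell without the block were among them. Position on the slide stays tied to dose in that fit. Without each mouse in turn, 30 to 49 members fell at the high dose and 9 to 21 at the middle dose. The middle dose count was 9 without mouse 13, 10 without mouse 15 or vehicle mouse 2, 12 without mouse 12, and 13 without vehicle mouse 3 or 5.

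Members varied together across mice. The correlation of a member with the median of the others over the 19 arrays had a median of 0.77 and ran from -0.11 in Rps19 to 0.97 in Rps3, and with group means removed its median was 0.52. The arrays share normalization and reference, so these values are descriptive. Outside the rule, genes whose ratio ran close to the member median over the 19 arrays included Sprr2a1 (r = 0.94), Gpi1 (0.89), Anp32b (0.87), Nsa2 (0.87), Rpl22 (0.87), Naca (0.83), Eef1a1 (0.83), Cdca7 (0.83) and Pkdcc (0.82).

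Other genes of the pathway were read by list, in loess ratios. Of all 19315 genes, 291 fell and 511 rose at the high dose, and 65 fell and 144 rose at the middle dose. Of 12 tested relatives that the rule leaves out, 7 fell and 1 rose at the high dose, with a median of -0.56. In the lung channel 3 fell and 1 rose, with a median of -0.34, where 149 of all 19315 genes fell and 472 rose. In the reference channel 2 were higher, as were 16 of all genes. Rpl22l1, the paralog of Rpl22, fell by 1.05 at the high and by 0.88 at the middle dose. Fau, a ubiquitin-like fusion with S30, fell by 0.65, Rack1, the scaffold on the small subunit, by 0.57, and Rps27 by 0.62. Rps27l, a paralog of Rps27 and a p53 target, rose by 1.09. Of 23 TOP mRNAs that encode no ribosomal protein, 4 fell and 0 rose at the high dose, with a median of -0.23: Tpt1 by 0.48, Eef1d by 0.39, Naca by 0.39 and Eif4b by 0.37. In the lung channel 1 of these mRNAs fell, with a list median of -0.13, and in the reference channel 1 was higher. At the middle dose 1 of them fell, Eif3e, by 0.48. The elongation factors Eef1a1 and Eef2 differed by -0.35 and -0.25 at the high dose and did not pass.

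The 76 mitochondrial ribosomal protein genes had a median of 0.04 at the high dose, with 0 passing in limma. Of 67 ribosome biogenesis and RNA polymerase I genes, 1 rose and 1 fell, with a median of -0.03, where 291 of all 19315 genes fell and 511 rose. Ltv1, an assembly factor of the small subunit, rose by 0.33, and Ppan, one of the large subunit, fell by 0.30. Of 26 genes of mTORC1 and TOP translation control 1 rose and 1 fell: Sesn2, a p53 target that restrains mTORC1, rose by 1.40, and its relative Sesn1 fell by 0.43. Of 13 genes of ribosomal stress and p53, 6 rose and 0 fell, among them Cdkn1a, the cell cycle inhibitor p21, by 3.28 and Mdm2 by 1.12. Of 16 genes of the Myc programme, Myc fell by 0.57 and Mycl by 0.62, and Mxd4, which opposes Myc, rose by 0.32.

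Cell type markers were read in loess ratios of the same arrays, where 1.51% of all genes fell at the high dose. Of 16 B cell genes 3 fell and 0 rose at the high dose, Cd79b by 0.62, Blnk by 0.58 and Tnfrsf13c by 0.46. The mean B cell ratio ran from 0.66 to 1.20 in vehicle mice, 0.72 to 1.02 at the low, 0.48 to 0.82 at the middle and 0.52 to 0.80 at the high dose, and 11 of the 16 were well above background on all arrays. Of 8 NK cell genes 1 fell, Klrb1c by 0.52, with a list median of -0.42. Of 12 lung endothelium genes 2 fell and 0 rose, with 4 below 0 and a median of 0.07. In the lung channel 2 of these genes fell and 3 rose, with a median of 0.34, where 149 of all 19315 genes fell and 472 rose. Gpihbp1, which carries lipoprotein lipase to capillaries, fell by 1.42, and the endothelin receptor gene Ednrb fell by 1.24. Kdr, Car4 and Emcn differed by 0.47, 0.45 and 0.33 in the ratio and did not pass. Of 7 club and airway genes all were below 0 and 0 passed in limma, with a median of -0.33, and of 10 alveolar type 2 genes 9 were below 0 and 0 passed, with a median of -0.15. Of 14 T cell, 16 proliferation, 10 skeletal muscle, 10 cardiac muscle and 8 adipose genes 0 passed in limma, with medians of -0.14, -0.06, -1.53, -1.37 and -0.94. The mean skeletal muscle ratio ran from -0.91 to -0.09 with a median of -0.75 in high dose mice, against -0.51 to 5.35 with a median of 0.08 in vehicle mice. The part of these cells in the ribosomal protein result was not tested.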

How the data were processed

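The members and gene lists were chosen with earlier results of these data known. Spot intensities were deposited by the authors as Feature Extraction 10.7.3.1 scanner output, per the file headers. The authors' deposited table holds log2 ratios of lung over reference, a scale and direction found by comparison with scanner values (r 0.995 to 0.998). Its centring was not given in the sources used here. Median spot intensities were used, since the files hold no mean spot columns.

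In limma 3.58.1 (R 4.3.3), intensities were corrected with normexp (offset 50) and loess-normalized with a weight of 0 for control spots, outlier spots (0.29%) were removed and spots averaged per probe. Symbols came from RefSeq accessions (GRCm38.p6), which named 23374 of 41174 probes. Probes well above background in lung on at least 4 arrays were kept, and the probe brightest in lung stood for its gene. Channels were taken after Aquantile. All 19 arrays entered one fit of group means, with lmFit and eBayes, and one of dose as a number. Named members followed a rule: largest differences per dose and channel, extremes of brightness and spread, and a set with known roles. The fit was tested on simulated data. The labels number each mouse separately, and the p-values measure the spread between these arrays. Some results on single genes are not reported here.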

Additional observations from a re-analysis of the deposited data

Results flagged for a closer look

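Of 164 groups of mice tested, 11 held a value that stood apart from the others by Dixon's test, and chance gives about 1 in 20 groups. At the high dose, mouse 18 had a small subunit median of -1.01, against -0.81 to -0.76 in the others, and an Rps3 ratio of -0.56, against -0.18 to -0.10. Mouse 20 had an Rps21 ratio of -0.55, against -1.01 to -0.90. At the middle dose, mouse 12 had a small minus large subunit median of -0.00092, against 0.22 to 0.25, and a median-centred member ratio of -2.63, against -1.91 to -1.83. In the same mouse Rps13 was -1.33, against -0.75 to -0.64, Rps6 was -1.60, against -1.18 to -1.11, and Rpl41 was 0.51, against -0.19 to -0.15. In vehicle mice, Rps13 was -0.70 in mouse 1, against -0.12 to 0.05, Rps27a was -0.51 in mouse 4, against -0.39 to -0.35, and Rpl24 was -0.92 in mouse 2, against -1.08 to -1.04. The scanner software's quality report marks 4 arrays for evaluation, among them those of mice 1, 12 and 20. Mice 1, 12 and 20 lay on the same slide, so slide and mouse cannot be told apart in their shared outlying values.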

How the results depend on the processing

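No paired analysis was possible by replicate number because each mouse has a number of its own, and mice that share a slide were compared through the slide block and within slides. The direction of the member median turned under median centring (0.20, 0.036 and 0.47 from low to high dose, with 0 members lower at the middle and high dose, 0 between the high and low dose and 0 with a falling trend), and the cause was not tested. All genes had medians of 0.15, 0.14 and 0.35 under that setting. There the high dose differences were Rpl37a 0.34, Rps12 0.42, Rps23 0.35, Rplp2 0.49, Rpl38 0.34, Rps3 0.38, Rplp0 0.52, Rps2 0.57, Rpl12 0.32, Rps4x 0.32, Rps29 0.48, Rpl11 0.56, Rpl13 0.26, Rps27a 0.57, Rps21 0.17, Rpl37 0.37 and Rps26 0.44. In the authors' deposited ratios Rps2 differed by 0.0044 at the high dose, the medians were -0.20 and -0.17 at the middle and high dose, 4 and 8 members were lower, 0 differed between the high and low dose and 12 had a falling trend. Processed signals gave -0.22 and -0.27, 12 members lower at the middle dose, 1 higher at the high dose (Rps19) and 3 between the high and low dose. A slide block gave 41 lower at the middle dose and 25 between the high and low dose, and a scan day block 34 and 23. Without the 4 arrays marked for evaluation these were 10 and 18, and the small minus large subunit median at the low dose was -0.086. In the channels, a slide block gave 12 and 47 members passing in lung and 4 and 37 in reference at the middle and high dose. The share of all genes passing in those channel fits is not given here, so these counts have no background. Each channel on its own gave 1 and 3 in lung, a high dose lung median of -0.21, reference medians of 0.013 and -0.0066, and 0 in reference at the high dose. No background subtraction, other filters, the mean of probes, all probes, and a loess with ribosomal protein spots at weight 0 (chosen after seeing the data) moved no count by over 1.5 times. Of these settings, only the slide block in the ratio, against vehicle, has a share of all genes given, in the results above. Mean spot signals were not run.

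Leaving out each mouse gave member medians of -0.20 to -0.12, -0.37 to -0.30 and -0.49 to -0.40 from low to high dose, 9 to 21 and 30 to 49 members lower at the middle and high dose, 3 to 11 between the high and low dose, and 41 to 55 with a falling trend. The small minus large subunit median ran from -0.082 to 0.0066, -0.16 to -0.034 and -0.11 to -0.02. In lung, medians ran from -0.10 to -0.07, -0.24 to -0.22 and -0.30 to -0.28, with 1 to 4 and 4 to 19 passing, and 4 to 9 without mouse 1, 2, 16, 17, 18 or 19 at the high dose. In reference, medians ran from 0.03 to 0.08, 0.09 to 0.14 and 0.11 to 0.18, with 0 to 9 passing at the high dose, and 0 to 4 without mouse 1, 2, 3, 5, 7, 16, 18 or 19. Leaving out mice gave 0 in every other count of calls.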
